A study of Drosophila melanogaster with 2 samples.

Results

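Transfer RNA (tRNA) genes carried few called peaks of the homeodomain transcription factor Rough in fly embryos: 2 of 290 had a peak in the set of peaks called over both replicates. The 290 members are every gene of Ensembl release 115 with the biotype tRNA on chromosomes 2L, 2R, 3L, 3R, 4 and X, out of 17896 annotated genes there. They number 41 on 2L, 98 on 2R, 48 on 3L, 79 on 3R, 24 on X and 0 on 4, and 22 mitochondrial tRNA genes are not members. Binding was measured by chromatin immunoprecipitation and sequencing with an antibody against GFP, in whole Drosophila melanogaster embryos aged 0 to 24 h from flies carrying a transgene for Rough (ro) fused to eGFP. Both libraries, biological replicates 1 and 2, come from this 1 strain and form 1 group, and neither an untagged strain nor an input was analysed here. Chromatin of the whole embryo was sonicated to 200 to 800 bp, so that the lists average over all cell types and over the whole of embryogenesis. A tRNA gene was counted as having a peak when a peak summit lay in the gene or within 250 bp of it.

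tRNA genes are short genes transcribed by RNA polymerase III. Their promoter lies inside the gene: TFIIIC binds the A box and the B box, places TFIIIB, which holds Brf and Bdp1 and in flies the TBP-related factor Trf, upstream of the start, and the polymerase stops at a run of T. In yeast, highly transcribed genes such as these are known to give chromatin immunoprecipitation signal for unrelated proteins. Rough is known for its role in photoreceptor patterning in the developing eye, and homeodomains commonly bind words such as TAATTA.

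Sequences of a pair of peaks and of a pair of tRNA genes are given here as examples. The first pair are 147 and 300 bases of the only peaks of the set over both replicates that lay at tRNA genes, read in the direction of the tRNA gene, with the 21 bases around the summit in capitals. They lie upstream of the genes, at chr3R:8669294-8669440 (minus strand) and chrX:3427597-3427896 (minus strand) of the Release 6 assembly. The second pair are whole tRNA genes with no candidate summit in any list, at chr3R:8861880-8861952 (plus strand) and chr2L:15132306-15132389 (minus strand), with the B box core GGTTCGA in capitals. The pairs differ by choice: the first lie outside the genes, and the second are genes that hold this core.
Tyr-GTA-1-8: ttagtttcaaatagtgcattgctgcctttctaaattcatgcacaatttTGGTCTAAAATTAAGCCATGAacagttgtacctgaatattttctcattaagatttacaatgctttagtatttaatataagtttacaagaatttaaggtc
Gln-TTG-2-1: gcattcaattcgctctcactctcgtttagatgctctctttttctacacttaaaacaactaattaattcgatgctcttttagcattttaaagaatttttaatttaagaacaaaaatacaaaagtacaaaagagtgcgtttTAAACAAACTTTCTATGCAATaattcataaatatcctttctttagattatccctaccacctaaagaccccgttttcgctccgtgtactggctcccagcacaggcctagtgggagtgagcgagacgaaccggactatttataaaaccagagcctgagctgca
Arg-TCG-2-3: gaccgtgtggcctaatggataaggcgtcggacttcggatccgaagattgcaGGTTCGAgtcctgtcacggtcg
Leu-TAA-3-1: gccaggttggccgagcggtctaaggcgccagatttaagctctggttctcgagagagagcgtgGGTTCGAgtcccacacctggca
The word TAATTA stands once in the Gln-TTG-2-1 stretch, 91 bases upstream of the summit, and not in the Tyr-GTA-1-8 stretch. In 300 bp around the summit it stood in 391 of 1882 peaks (20.8%) of the set over both replicates, and in 2338 of 13945 windows (16.8%) of that length at starts of protein-coding genes. A match of letters is not a bound site.

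The authors deposited peaks that passed a threshold on the irreproducible discovery rate (IDR). It is the estimated share, among peaks at or above a given rank, of those that are not consistent between the peak lists compared. There were 4 lists: an optimal and a conservative set over both replicates, and a list of each replicate. A peak in the list of 1 replicate need not recur in the other replicate. In the optimal set 2 of 290 tRNA genes (0.690%, Wilson 95% interval 0.189 to 2.48%) had a peak, against 704 of 13945 starts of protein-coding genes (5.05%, 4.70 to 5.42%). In the conservative set there were 3 tRNA genes (1.03%), against 4.62% of protein-coding starts. Replicate 1 had 2 (0.690%), against 4%, and replicate 2 had 3 (1.03%, 0.352 to 3.0%), against 3.61%. In every list the tRNA share was below the protein-coding share and the intervals did not overlap, although a tRNA window was longer, with a median of 573 bp. With protein-coding windows of that length the share at their starts was 5.38% in the optimal set. tRNA and protein-coding windows differ in how much of their sequence is unique in the genome, and shares by that measure are given below.

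In all, 286 of the 290 genes (98.6%) had no peak in any of the 4 lists, 2 had one in the lists of both replicates, and 1 in that of replicate 2 only. Of protein-coding starts, 367 (2.63%) had a peak in the lists of both replicates. The lists used here hold no read totals, so the depth is unknown. These intervals cover only the counting of genes and treat neighbouring genes as separate. Windows of the same length placed 2 kb to either side of the tRNA genes, and clear of other tRNA genes, gave the local background. Of these flank windows, 9 of 514 (1.75%, 0.924 to 3.29%) had a peak of the optimal set, 6 (1.17%) one of replicate 1 and 5 (0.973%) one of replicate 2. The tRNA genes and their flanks did not differ beyond these intervals in any of these lists, so the low count of thresholded peaks was shared by the neighbourhood. Moved to 5 kb, 3 of 543 flank windows (0.552%) had a peak.

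**Figure D1:**
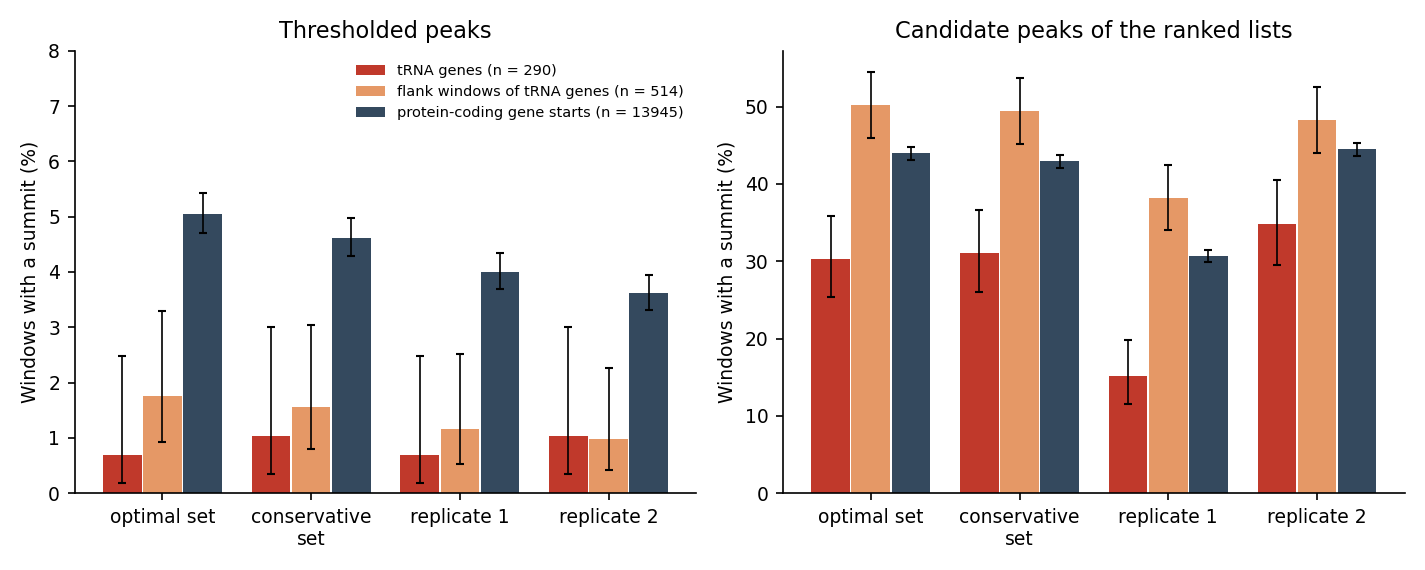
Share of windows (%) with a summit in the thresholded lists (left) and in the ranked lists of candidates (right), for 290 tRNA genes, 514 flank windows and 13945 protein-coding gene starts; bars show shares and whiskers Wilson 95% intervals. On the left, tRNA genes (0.690 to 1.03%) and flanks lie below protein-coding starts, and on the right tRNA genes lie below both other classes.

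The strongest binding at a tRNA gene was at tRNA:Tyr-GTA-1-8 (FBgn0012024), a tyrosine tRNA gene of 94 bp at chr3R:8669081-8669174 on the minus strand. No other tRNA gene was identical to it over the whole annotated gene. The authors' signal value, a measure of enrichment on each list's own scale, was 127 in replicate 1 (rank 253 of 1484) and 88.9 in replicate 2 (rank 310 of 1113). In the optimal set it was 215 (rank 256 of 1969), where all peaks had a median of 102 and peaks at protein-coding starts one of 121. The summit lay 208 bp upstream of the tRNA start, in an intron shared by CG8036 and p, and 1302 bp from the nearest protein-coding start, that of p. In both replicates the peak thus ranked in the upper part of its list. The 3 Tyr genes here stand within 1059 bp, and tRNA:Tyr-GTA-1-7 had no candidate summit in any list, while tRNA:Tyr-GTA-1-6 had a weak one of 6.21 in replicate 2 only.

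The other gene with a peak in both replicates was tRNA:Gln-TTG-2-1 (FBgn0052493), a glutamine tRNA gene of single sequence at chrX:3427452-3427523 on the minus strand, in an intron of CG12535. Its signal was 58.8 in replicate 1 (rank 996 of 1484) and 43.3 in replicate 2 (rank 1040 of 1113). In the optimal set it was 93.1 (rank 1151 of 1969), and the summit lay 224 bp upstream of the tRNA start and 8060 bp from the nearest protein-coding start. It thus ranked in the lower part of each list. Its deposited q value in the optimal set was 0.0701, and that of the peak at Tyr-GTA-1-8 was 0.0384. No peak of the optimal set had its summit within 100 bp of a tRNA gene, and none (0 of 290, which allows up to 1.03%) overlapped one by 1 bp.

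The remaining 2 genes had a peak in 1 list each. tRNA:Trp-CCA-2-5, at chr2R:21181284-21181355 on the plus strand, had one of 45.6 in replicate 2 (rank 998 of 1113), with the summit in coding exon 3 of Pu, the gene for GTP cyclohydrolase. Replicate 1 had no candidate there. tRNA:Phe-GAA-1-2, at chrX:6744471-6744543 on the minus strand, had one of 66.8 in the conservative set (rank 1476 of 1627). Its summit was 28 bp from the start of RpL17, a ribosomal protein gene, and 277 bp from the tRNA start, and the candidates of replicates 1 and 2 had 30.3 and 47.5. Both genes are identical in sequence to others, 6 genes for Trp-CCA-2-5 and 8 for Phe-GAA-1-2 with themselves included. At all 4 genes the summit lay outside the tRNA gene itself.

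The full ranked lists hold many candidates below the threshold, 93400 in replicate 1, 121684 in replicate 2 and 144610 over both, and show whether weak signal gathers at tRNA genes. A candidate summit here is any summit of a ranked list, thresholded ones included. tRNA genes held fewer of them than either class they were set beside. Replicate 1 had a candidate summit at 44 of 290 tRNA genes (15.2%, 11.5 to 19.8%), against 30.7% of protein-coding starts and 38.1% of flank windows. Replicate 2 had one at 101 (34.8%, 29.6 to 40.5%), against 44.5% and 48.2%. The ranking over both replicates had one at 88 (30.3%, 25.3 to 35.9%), against 43.9% and 50.2% (45.9 to 54.5%). In all 3 rankings the tRNA share was the lowest of the 3 classes and its interval overlapped neither of the others. The snoRNA genes, another class of small RNA genes, had 59 of 269 (21.9%, 17.4 to 27.3%) in replicate 1, 105 (39.0%, 33.4 to 45.0%) in replicate 2 and 92 (34.2%, 28.8 to 40.1%) over both. Their intervals overlapped those of the tRNA genes in each ranking, so the low share was not shown to be particular to tRNA genes.

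The candidates at tRNA genes were of moderate rank, and the lists differed. Their best candidate had a median signal of 15.3 in replicate 1, 13.3 in replicate 2 and 18.5 over both, where protein-coding starts with a candidate had 15.4, 15.6 and 23.6. The median rank from the top was 52.4% of the list over both, against 35.5% at protein-coding starts and 44.2% at flanks. In replicate 1 it was 37.0%, against 33.8% and 48.1%, and in replicate 2 49.3%, against 35.4% and 44.2%. The tRNA candidates thus ranked below those of protein-coding starts in each list, by little in replicate 1, where they ranked above those of flanks. All candidates had a median signal of 12.8 in replicate 1 and 13.2 in replicate 2. Among all genes, 2 of 290 tRNA genes (0.690%) reached the top 1% of the ranking over both and 10 (3.45%) the top 10%, against 4.12% and 10.7% of protein-coding starts. Of the tRNA genes with a candidate, 2 of 88 (2.27%, 0.625 to 7.91%) had a thresholded peak, against 704 of 6127 protein-coding starts (11.5%) and 9 of 258 flank windows (3.49%). These were 2 of 44 (4.55%) against 13.0% of protein-coding starts in replicate 1, and 3 of 101 (2.97%) against 8.13% in replicate 2. The share was below that of protein-coding starts in all 3 lists, with intervals apart over both replicates and overlapping within each.

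**Figure D2:**
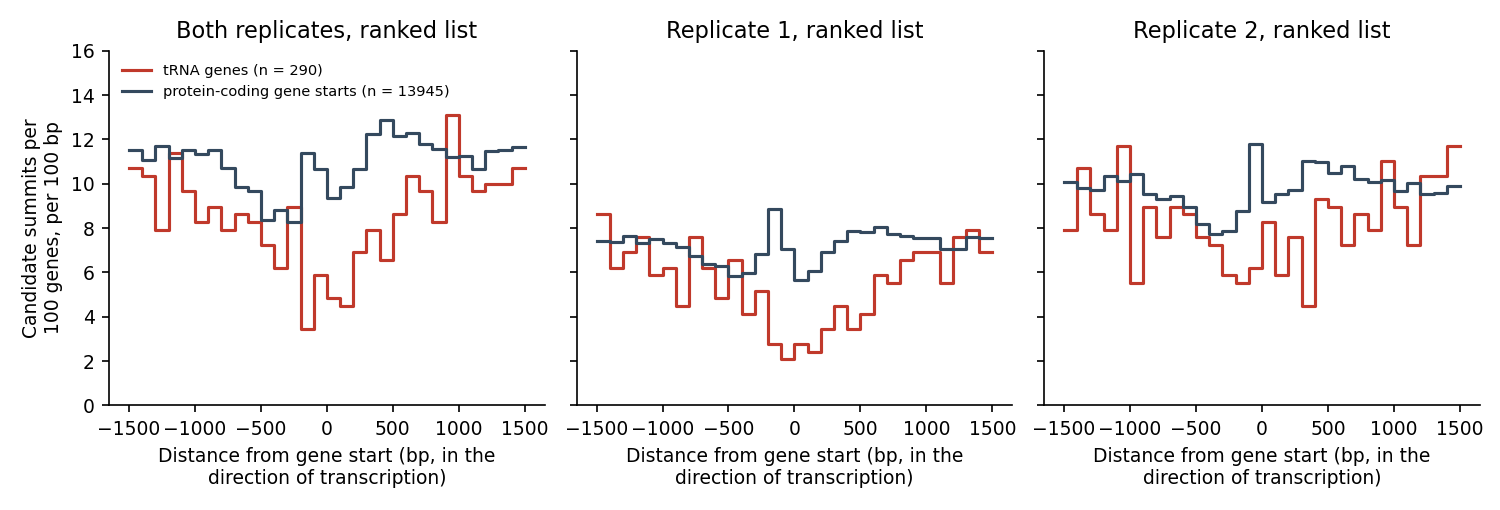
Candidate summits per 100 genes in 100-bp steps from 1500 bp upstream to 1500 bp downstream of the gene start, for 290 tRNA genes and 13945 protein-coding gene starts, in the ranked lists over both replicates, of replicate 1 and of replicate 2. The tRNA line dips around the start over both replicates and in replicate 1, and has no gap at the start in replicate 2, where the step at the start holds 8.28 summits per 100 genes.

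The plot of summits by distance shows fewer summits at the gene start over both replicates and in replicate 1, and no gap in the first 100 bp in replicate 2. Over both replicates the 100-bp step that begins 200 bp upstream of tRNA starts held 3.45 summits per 100 genes, and the first 100 bp from the start 4.83, against 11.4 and 9.37 at protein-coding starts. In replicate 1 these steps held 2.76 and 2.76 at tRNA genes, against 8.86 and 5.67. In replicate 2 they held 5.52 and 8.28, against 8.77 and 9.18, and the lowest step of all began 300 bp downstream, with 4.48.

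Counted per kb of tRNA gene, replicate 1 had 0.272 summits, against 0.821 in flanks and 0.681 over all arms. Replicate 2 had 0.908, against 0.976 and 0.888. Over both the tRNA genes had 0.590 (13 summits in 22026 bp), against 1.12 and 1.04. Summits inside the genes were thus fewer than in the surroundings in replicate 1 and over both, and near the average of the arms in replicate 2. Of the 88 best candidates over both, 41 lay upstream of the gene, 10 inside and 37 downstream, so they favoured neither side.

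How repetitive the genes are was set beside these shares. Of the 290 genes, 238 have an identical copy elsewhere and the set holds 95 distinct sequences. Sequences were compared over the whole annotated gene, from start to end. Genes of the same symbol family, such as Tyr-GTA-1, therefore count as genes of single sequence where these stretches differ. Of words of 31 bases, a median of 0% inside a tRNA gene occurred once in the genome, and 11 of 290 genes had 80% or more unique words. Over the whole window of a tRNA gene the median was 90.6%, and at flanks and protein-coding starts 100%. How the authors treated reads that map to several places is not given in the sources used here.

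Genes of single sequence had a candidate over both replicates in 26 of 52 cases (50%, 36.9 to 63.1%), and those with an identical copy in 62 of 238 (26.1%, 20.9 to 32%). Replicate 1 gave 34.6% and 10.9%, and replicate 2 gave 65.4% and 28.2%, so single-sequence genes were higher in both. Protein-coding starts had 43.9%, 30.7% and 44.5%, and flanks 50.2%, 38.1% and 48.2%, so the share of single-sequence tRNA genes was not below that of protein-coding starts in any ranking. Both peaks of the optimal set stood at single-sequence genes (2 of 52, 3.85%, 1.06 to 13.0%), and 0 of 238 with a copy had one, which allows up to 1.26%. The interval of single-sequence genes held the 5.05% of protein-coding starts. The list of each replicate also had a peak at 2 of 52 single-sequence genes, against 4% and 3.61% of protein-coding starts in replicates 1 and 2. Among windows with 80% or more unique words, 76 of 262 at tRNA genes (29.0%) had a candidate over both, against 51.8% at flanks and 44.9% at protein-coding starts. Of these 262 windows, 210 belong to genes with an identical copy, and 3 tRNA windows are wholly unique. Wholly unique were 483 of the 498 flanks and 13041 of the 13507 protein-coding starts, so this range was not like for like. From 80 to under 100%, candidates over both stood at 28.6% of 259 tRNA windows (23.4 to 34.4%). Flanks had 5 of 15 (33.3%, 15.2 to 58.3%) and protein-coding starts 44.0% of 466 (39.6 to 48.5%). In replicate 1 these were 16.2%, 46.7% and 26.4%, and in replicate 2 35.9%, 33.3% and 43.8%. The less unique tRNA windows were not lower over both, with a candidate at 4 of 8 under 50% unique words and at 8 of 20 (40%) from 50 to under 80%. In replicate 1 they had 0 of 8 (which allows up to 37.5%) and 1 of 20, and at 80% or more 43 of 262 (16.4%). In replicate 2 they had 0 of 8, 6 of 20 (30%) and 95 of 262 (36.3%). The order by unique words thus differed between the list over both and the replicates, on few windows. In the optimal set, windows of 80 to under 100% unique words had a peak at 2 of 259 tRNA genes (0.772%, 0.212 to 2.77%). Protein-coding starts in that range had 3 of 466 (0.644%, 0.219 to 1.88%), so the tRNA share was not below theirs there. Of wholly unique windows, 698 of 13041 protein-coding starts (5.35%) and 0 of 3 tRNA genes had a peak. The part of read mapping in the low share was not tested.

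Base composition moved with the candidates as well. The A + T share of tRNA windows had a median of 62.6%, against 58.2% at flanks and 58.8% in protein-coding windows of the same length. Over both replicates, candidates stood at 33 of 67 tRNA windows under 60% A + T (49.3%, 37.7 to 60.9%), 39 of 142 between 60 and 65% (27.5%, 20.8 to 35.3%) and 16 of 81 at 65% or more (19.8%, 12.5 to 29.7%). Protein-coding starts in these ranges had 52.4%, 36.4% and 20.6%, and flanks 66.5%, 31.1% and 13.2%. At like composition the gap to protein-coding starts was therefore smaller than in the whole set, and their intervals overlapped in all 3 ranges. Below 60% the tRNA share was under that of the flanks (61.1 to 71.4%), and in the highest range it was not.

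The replicates differed in this respect. In replicate 1 tRNA windows had 26.9%, 12% and 11.1% by rising A + T share, against 34.6%, 27% and 20.3% at protein-coding starts. The share was lower in each range, and the intervals were apart only in the middle one (7.61 to 18.3% against 25.6 to 28.3%). In replicate 2 they had 55.2%, 33.8% and 19.8%, against 52.8%, 37.4% and 20.6%, and the intervals overlapped in each range. The part of composition in the low share was not tested. Thresholded peaks of the optimal set stood at 1 of 67 (0.264 to 7.98%), 0 of 142 (which allows up to 2.11%) and 1 of 81 (0.218 to 6.67%) tRNA windows. Protein-coding starts had 4.47%, 6.61% and 3.98%. The tRNA intervals held these shares in the lowest and highest ranges, and only the middle range was apart.

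**Figure D3:**
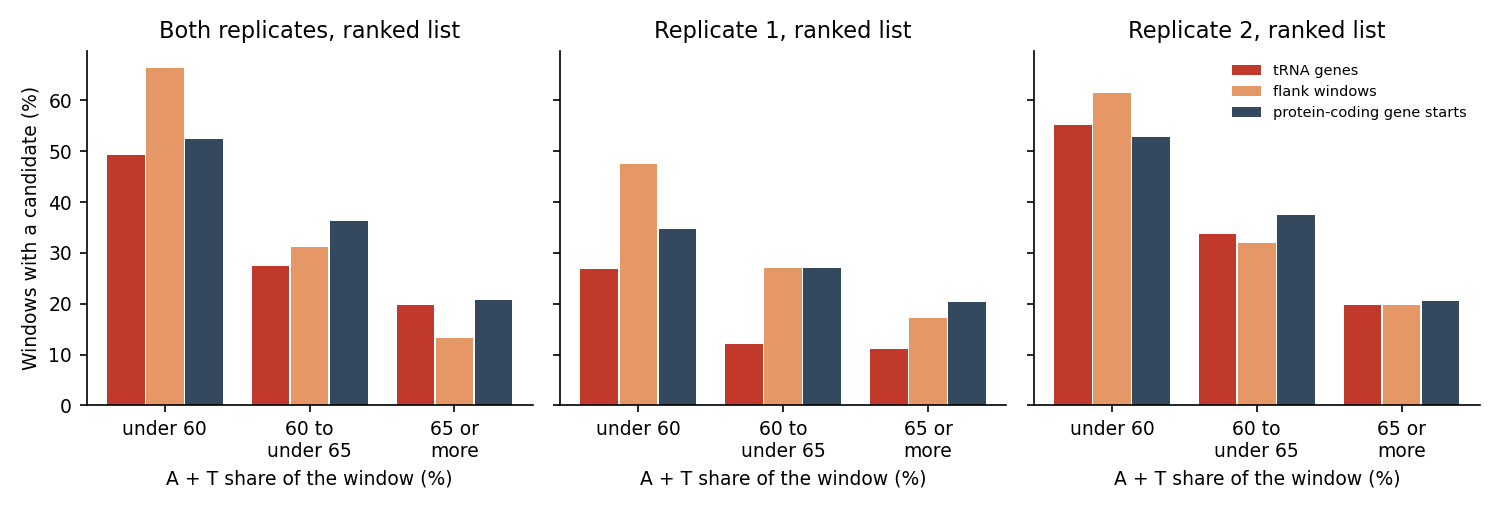
Share of windows (%) with a candidate summit, by the A + T share of the window, for tRNA genes, flank windows and protein-coding gene starts in 3 ranked lists. All classes fall as A + T rises; tRNA genes stay below protein-coding starts in every range in replicate 1 and are close to them in replicate 2.

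The replicates shared part of these genes. Of the 290 genes, 29 (10%) had a candidate in both replicates, 15 in replicate 1 only, 72 in replicate 2 only and 174 in neither. Both replicates had a candidate at 21.1% of protein-coding starts. The shared tRNA genes were 65.9% of those of replicate 1 and 28.7% of those of replicate 2, against 68.7% and 47.4% at protein-coding starts. In all, 151 genes (52.1%) had no candidate in any of the 4 rankings. Over the 29 shared genes the signal ran from 2.90 to 127 with a median of 16 in replicate 1, and from 3.25 to 88.9 with a median of 15.8 in replicate 2. Their rank correlation was 0.39, against 0.62 over 2938 protein-coding starts, both as descriptions across genes, some of which share a candidate. The plot of both replicates shows 2 genes that stand apart, Tyr-GTA-1-8 and Gln-TTG-2-1, along with Phe-GAA-1-2, whose peak lies at RpL17.

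**Figure D4:**
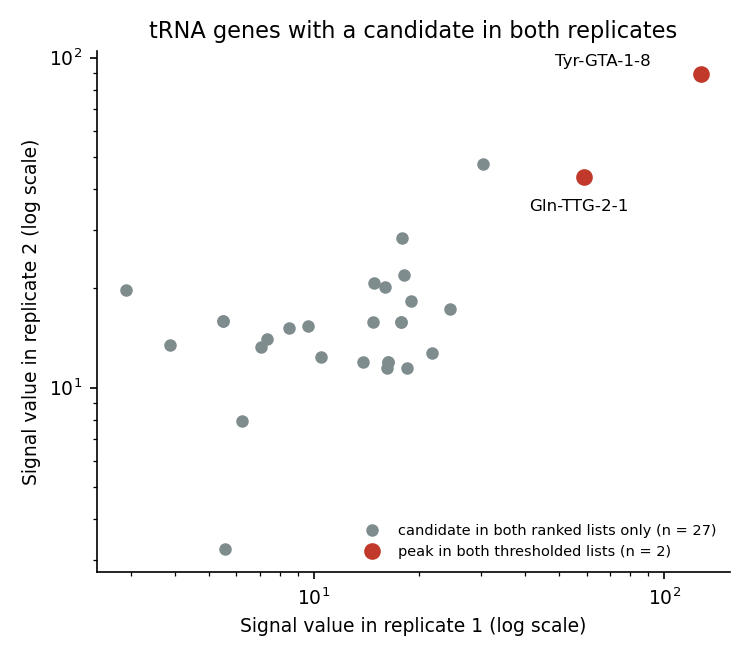
Signal value of the best candidate in replicate 1 (x axis) and replicate 2 (y axis), both on log scales, for the 29 tRNA genes with a candidate in both; each point is a gene and some points coincide because neighbouring genes share a candidate. The 2 genes with a thresholded peak in both replicates are at the upper right, and the median of all 29 is 16 in replicate 1 and 15.8 in replicate 2.

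The strongest candidates outside every thresholded list recurred in part. By replicate 1 they were tRNA:Asp-GTC-1-7 with 28.2, tRNA:Ala-AGC-2-3 with 24.4, tRNA:Lys-TTT-1-1 with 21.8, tRNA:Phe-GAA-1-1 with 19.0 and tRNA:Leu-TAA-2-1 with 18.9. Replicate 2 gave no candidate at Asp-GTC-1-7 and Phe-GAA-1-1, and 17.3, 12.7 and 18.3 at the others. By replicate 2 they were tRNA:Thr-AGT-1-4 with 41.5, tRNA:Arg-TCG-4-1 with 28.3, tRNA:His-GTG-1-3 with 27.7, tRNA:Pro-CGG-2-3 with 25.9 and tRNA:His-GTG-1-5 with 25.7. Of these 5, replicate 1 had a candidate at Arg-TCG-4-1 only, with 17.9. Thus 4 of these 10 genes had a candidate in both replicates. Some of the summits, as at Ala-AGC-2-3 and His-GTG-1-5, lay near the outer edge of the 250-bp window. Leu-TAA-2-1, His-GTG-1-3 and Pro-CGG-2-3 stand 239, 250 and 447 bp from the start of a protein-coding gene. Among all tRNA genes with a candidate, 65.9% of those of replicate 1 had one in replicate 2, and 28.7% the other way. The named genes were picked for a high value in 1 replicate, and their recurrence was not set apart from these shares.

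The genes fall into 22 isotypes, one for each amino acid with the initiator methionine (iMet) and selenocysteine (SeC) apart, and 44 anticodons. Cys had the highest share among isotypes with more than 1 gene, with a candidate over both replicates at 6 of 7 genes (85.7%), 4 in replicate 1 and 5 in replicate 2. Of these, 4 are identical genes in a single cluster on 3L, and 2 of them shared a candidate of 15.7. iMet followed with 4 of 6 (66.7%), 1 in replicate 1 and 5 in replicate 2. The lowest shares were Ile with 1 of 11 (9.09%) and Asn with 1 of 10. For Ile the replicates were far apart, with 1 in replicate 1 and 6 in replicate 2, and for Asn they had 2 and 0. The thresholded peaks were of 4 isotypes, Tyr, Gln, Trp and Phe, with 1 gene each of 10, 12, 8 and 8. With so few genes each, and copies that share windows, the isotypes were described without ranking beyond this.

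**Figure D5:**
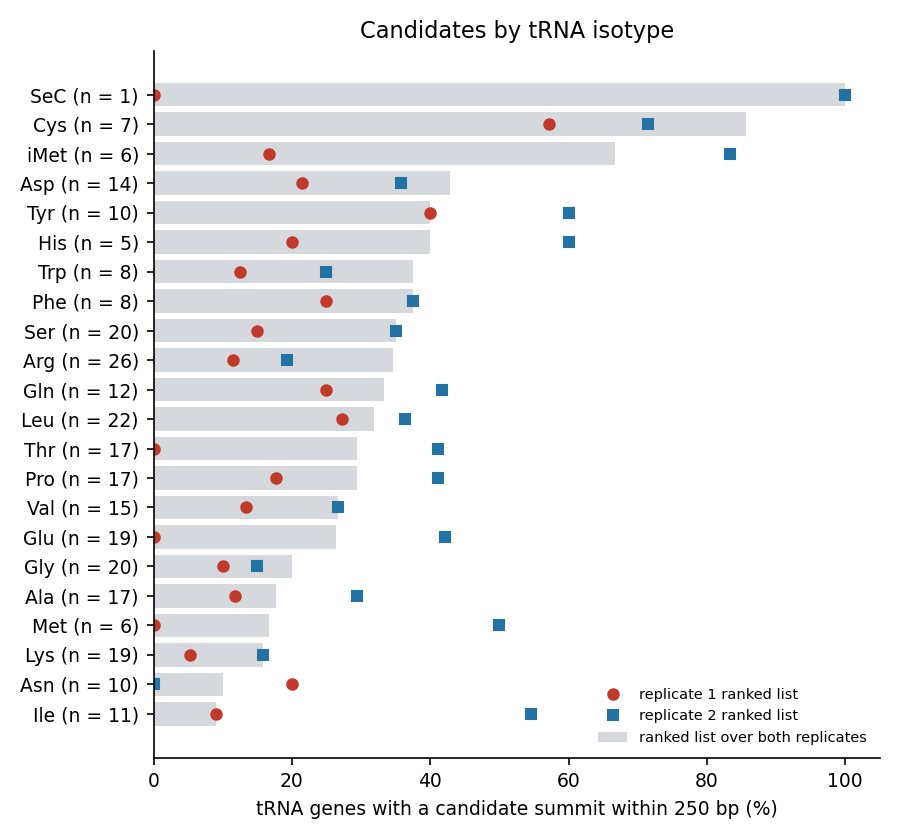
Share of tRNA genes (%) with a candidate summit in the gene or within 250 bp, by isotype with the number of genes, in the ranked list over both replicates (bars), of replicate 1 (circles) and of replicate 2 (squares). Shares over both run from 9.09% in Ile to 85.7% in Cys among isotypes with more than 1 gene, and the replicates are far apart in Ile, Met and iMet.

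Joined where neighbours lie at most 1 kb apart, the genes form 174 clusters, of which 105 hold 1 gene, 43 hold 2, 21 hold 3 or 4 and 5 hold 5 or more. Genes that stood alone had a candidate over both replicates in 47 of 105 cases (44.8%, 35.6 to 54.3%), close to protein-coding starts, and clustered genes in 41 of 185 (22.2%, 16.8 to 28.7%). In replicate 1 these were 21.9% and 11.4%, and in replicate 2 41.9% and 30.8%. Lone genes were thus higher than clustered ones in both replicates, and the intervals overlapped within each. Protein-coding starts had 30.7% in replicate 1 (29.9 to 31.4%), above lone genes (15.1 to 30.7%), with intervals that just overlapped. In replicate 2 protein-coding starts had 44.5%, close to lone genes. Thresholded peaks of the optimal set stood at 2 of 174 clusters (1.15%).

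The 5 largest clusters had no thresholded peak in any list. The 7 Ile and Leu genes at chr2R:13430282-13432794 had no candidate over both replicates, none in replicate 1 and 5 genes with one in replicate 2, up to 16.6. The 7 Arg and Ser genes at chrX:14014814-14017284 had 5 genes with a candidate over both, up to 16.6, but none in either replicate alone. At chr3L:3095737-3097590, with 6 Cys and Lys genes, 5 genes had one over both, up to 16.6, with 2 in replicate 1 and 4 in replicate 2. The 6 Arg and Asn genes at chr3R:8139533-8141042 had 1 over both, of 27.8, which recurred in replicate 1 with 15.5 and not in replicate 2. The 5 Arg, Asn and Lys genes at chr2R:6161535-6162753 had none over both, and 2 genes in replicate 1 with up to 16.9. Apart from the cluster on X, with no candidate in either replicate, the number of genes with a candidate differed between the replicates in each of these clusters.

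Position relative to protein-coding genes was also set beside the candidates. Of the 26 tRNA genes within 500 bp of a protein-coding start, 4 (15.4%) had a candidate over both, against 31 of 77 (40.3%) of those more than 10000 bp away. Replicate 1 had 11.5% and 18.2%, and replicate 2 38.5% and 29.9%, so the order was not shared. Inside protein-coding genes 39 of 134 (29.1%) had a candidate and outside them 49 of 156 (31.4%). Both peaks of the optimal set lay in introns of such genes, and 0 of the 156 outside had one, which allows up to 1.92%. By arm, the share with a candidate over both ran from 22.4% of 98 genes on 2R to 62.5% of 24 genes on X (15 genes, 42.7 to 78.8%), where protein-coding starts had 44.7% and 45.6%. X was the arm where the tRNA share over both was above that of protein-coding starts, but its interval held their share. On X the replicates had 37.5% each, against 26.8% and 44.1% of protein-coding starts, so the order was reversed in replicate 2. Of the 15 genes on X, 5 are in a single cluster that had no candidate in either replicate alone.

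Promoter words of the genes were counted on the reference alone. The B box core GGTTCGA stood in 145 of 290 genes (50%), and a run of TTTT in the first 30 bp downstream in 277 (95.5%). On both strands of the whole window the core stood in 55.5% of tRNA windows, against 4.37% of protein-coding windows of the same length. None of the 145 genes with the core had a peak in any thresholded list, which allows up to 2.07%. The 4 genes with a peak all lack these exact letters and all have the T run. Candidates over both stood at 35 of the 145 with the core (24.1%) and at 53 of the 145 without (36.6%); replicate 1 had 13.1% and 17.2%, and replicate 2 27.6% and 42.1%. TAATTA, searched on both strands, which read alike, stood in 132 of 290 tRNA windows (45.5%), against 30.6% of protein-coding windows. It stood in 43.2% of tRNA windows with a candidate over both and in 46.5% of those without, and in none of the windows of the 4 genes with a peak.

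Other genes of the RNA polymerase III system were counted by the same distance, and read against 5.05% of protein-coding starts. Genes for 5S rRNA, the ribosomal RNA made by this polymerase, had no peak in the optimal set (0 of 96, which allows up to 3.12%), and 2 had a candidate over both; these genes are near-identical repeats. Of 10 other transcripts of the polymerase, such as the U6 snRNAs and RNase P RNA, 1 had a peak. This was snRNA:7SKa, with 93.3 in the optimal set and candidates of 32.9 and 48.8 in replicates 1 and 2, neither of them past the threshold of its own list. Among 269 snoRNA genes 1 (0.372%) had a peak of the optimal set, and among 32 snRNA genes 2 (6.25%, 1.73 to 20.1%). Both classes were taken by biotype and not by polymerase, and the snRNA count includes snRNA:7SKa again. The tRNA share lay within the range of these small RNA genes.

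Of 16 genes for RNA polymerase III subunits and its factors, 2 had a peak of the optimal set. Bdp1, a subunit of TFIIIB, had 154 in replicate 1, 76.9 in replicate 2 and 239 in the optimal set. Brf, another TFIIIB subunit, had 112 in replicate 1 and 193 in the optimal set, while its candidate of 63.8 in replicate 2 was not in that thresholded list. Of 20 aminoacyl-tRNA synthetases, the enzymes that charge tRNAs, 3 had a peak in both replicates, where 2.63% of protein-coding starts had one. GluProRS had 104 and 68.8, SerRS 93.4 and 68.0 and IleRS 85.2 and 67.1, in replicates 1 and 2. Candidates over both stood at 8 of 16 starts of the first list (50%) and 15 of 20 of the second (75%), where the protein-coding share was 43.9%. In replicate 1 these were 31.2% and 60%, against 30.7%, and in replicate 2 50% and 75%, against 44.5%.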

How the data were processed

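Peak lists of 2 ChIP-seq libraries of 1 group were analysed, on dm6 per the labels. The authors deposited ranked and IDR-thresholded lists per replicate and over both. The signal value per peak is the authors' and was used only within a list. The q value is deposited as −log10 q, and the global IDR of the ranked lists as −log10. Aligner and peak caller: not given in the sources used here. A further 16 columns of the rankings over both, with values of 1 replicate each, could be tied to no label and were not used. The optimal and conservative rankings were told apart by which one gives every peak of each set an IDR of at most 0.01 (−log10 of at least 2). No read totals are in the lists.

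Summits were placed on Ensembl release 115 (BDGP6.54), without pseudogenes and transposable elements, and sequences were read from the Release 6 assembly of RefSeq, on which no peak ran past the end of an arm. Protein-coding starts are the 5' ends of genes with 250 bp to each side. Their A + T share and words used windows of 573 bp and their summits 501 bp. Shares have Wilson 95% intervals, and a count of 0 was given the limit of 3 counts. No p was computed: there is 1 group, and peaks of a library are not replicates. Placement was tested on simulated data. Python 3.11.15, pandas 2.3.3, numpy 2.4.6, scipy 1.17.1 and matplotlib 3.10.9 were used.

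The members, lists and tests were chosen with earlier results of these data known. Word uniqueness, A + T ranges, shares of candidates that passed, the symbols of the partner lists and rank as the summary of signal were chosen after seeing the lists. Genes were named by a rule: the 15 tRNA genes with the highest optimal-set signal, those in both own lists, the 5 strongest candidates outside the thresholded lists per replicate, the 5 largest clusters and partner genes with an optimal-set peak. Genes with a peak in 1 list, and Cys, iMet, Ile and Asn, were named after their values were seen. Alternatives were other windows, overlap in place of summit, other lists, stricter thresholds, subsets of genes, other flanks and other cluster gaps.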

Additional observations from a re-analysis of the deposited data

How the results depend on the processing

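The optimal-set share of 0.690% of tRNA genes became 0% with windows of 0 or 100 bp and with any overlap of peak and gene, where no signal could be given, and 3.85% among genes without an identical copy. The other settings gave 0.345 to 1.15%, and the replicates' own lists 0.690 to 1.03%. The median rank of these peaks, 35.7% from the top, ranged from 42.1 to 89.7% with either replicate left out. Protein-coding starts went from 5.05 to 5.85% when any transcript start counted, and flank windows from 1.75 to 0.552% at 5 kb.

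The share with a candidate, 30.3%, was tried under settings chosen after seeing the data. It was 4.48, 13.1 and 45.9% with windows of 0, 100 and 500 bp, 19.7% by overlap, 13.8% above the median signal and 0.345% with q of at most 0.05, which 0.683% of that list reaches. It was 50% without identical copies and 40.8% with each cluster counted once, and 15.2 to 34.8% with either replicate left out. Cluster shares moved within their intervals at other gaps. No paired analysis was possible because there is 1 group. Depth is unknown, and with 2 libraries and no control analysed here, weak binding at tRNA genes below the detection of these lists was not measured. The cause of these shifts was not tested, except that narrower windows and stricter thresholds hold fewer summits by construction.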
